A study of Homo sapiens with 10 samples.

Results

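Collagen genes were examined in RNA sequencing of human cells derived from the embryonic stem cell line H9, with and without overexpression of DAZL, an RNA-binding protein of germ cells. Members were chosen by name, as every gene whose symbol is COL, a type number, the letter A and a chain number. The rule found 50 of the 64940 entries of the expression table, which are 44 gene names, because COL11A2 is listed under 7 identifiers and 6 of these were at 0 in every library. Of the 44 genes, 33 had a mean level of at least 1 TPM (a level scaled by transcript length and library total) over the 4 libraries and were tested, and the other 11 are given by their range.

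The comparison held 2 control libraries, of genotype wt and described as spontaneous differentiated SD cells, and 2 oeDAZL libraries, described as hPGCLCs (human primordial germ cell-like cells). In the methods, all hESCs were differentiated on Matrigel-coated plates with BMP4 and BMP8a for 6 days, and DAZL-P2A-GFP or GFP was delivered by lentivirus. The sources conflict on the controls: their sample labels name SD cells, whereas the series' design text and the paper name both groups as PGCLCs. Whether the groups also differed in treatment is therefore unsettled, and such a difference and DAZL cannot be told apart here. The hESCs had been kept on mouse embryo fibroblasts before differentiation, and no source used here says whether mouse reads were separated from human reads, so the collagen TPM may include reads from feeder cells. No label says whether the replicates were separate cultures, so P-values measure only the spread between these libraries. DAZL read 0 and 0.0333 TPM in control and 102 and 101 TPM in oeDAZL, so its level followed the labels. Of 8 germ cell markers, TFAP2C was between 44.3 and 53.9 TPM and KIT between 6.23 and 7.70 TPM, NANOS3, SOX17, PRDM1 and DPPA3 were between 0.716 and 3.35 TPM, CD38 was at most 0.160 TPM, and DDX4 was listed at 0 in all 4 libraries.

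Collagens are the main structural proteins of the extracellular matrix. Each collagen molecule is built of 3 chains wound around each other, and the winding requires glycine at every 3rd residue, the Gly-X-Y repeat. Most fibril-forming collagens have 1 long uninterrupted helix, and the class assembles into the fibrils of connective tissue. Network-forming collagens, above all type IV, have short interruptions in the helix and form the sheets of basement membranes, on which epithelial cells rest. The remaining types bind to fibrils, form beaded filaments or anchoring fibrils, or sit in the cell membrane.

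This difference between the classes can be read from the reference coding sequences. In the canonical transcripts of GENCODE 44 on hg38, counting runs of at least 6 unbroken triplets, the longest run was 343 triplets in COL3A1, 338 in COL1A1 and between 216 and 343 over the 11 fibril-forming genes. The shortest of these were 216 in COL24A1 and 217 in COL27A1, where the repeat was split into 3 runs. Over the 6 type IV genes the longest run was between 38 and 66 triplets, and each chain held between 22 and 27 separate runs. The windows below show the repeat in 2 fibril-forming chains and a break of it in 2 type IV chains, on the coding strand from 5′ to 3′, with the glycine codons of the repeat in capitals. The COL1A1 window is chr17:50191833-50191859 on the minus strand, codons 686 to 694, and the COL3A1 window is chr2:188999303-188999329 on the plus strand, codons 681 to 689. The COL4A1 window is chr13:110208852-110208881 on the minus strand, codons 221 to 230, and the COL4A5 window is chrX:108578087-108578116 on the plus strand, codons 219 to 228. Each window lies within 1 coding exon.
COL1A1: GGTgtgcaaGGTccccctGGTcctgct
COL3A1: GGTgaacgtGGAcctcctGGAttggca
COL4A1: GGCttaagttttcaaGGAccaaaaGGTgac
COL4A5: GGCttaaatttccagGGAcccaaaGGTgaa
In the fibril-forming windows the glycine codons are spaced evenly, whereas in both type IV windows the first is followed by a longer gap.

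Collagen transcripts were abundant in both groups. They summed to 5118 and 5302 TPM in the control libraries, which is 0.512% and 0.530% of all TPM, and to 4329 and 4314 TPM in the oeDAZL libraries, which is 0.433% and 0.431%. Of the 44 genes, 8 had a mean level of at least 200 TPM, 12 of at least 100 TPM and 22 of at least 10 TPM. COL1A2 was the most abundant collagen in every library. COL1A1 ranked 2 in both controls and 4 in both oeDAZL libraries, where COL18A1 and COL5A1 were above it.

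**Figure D1:**
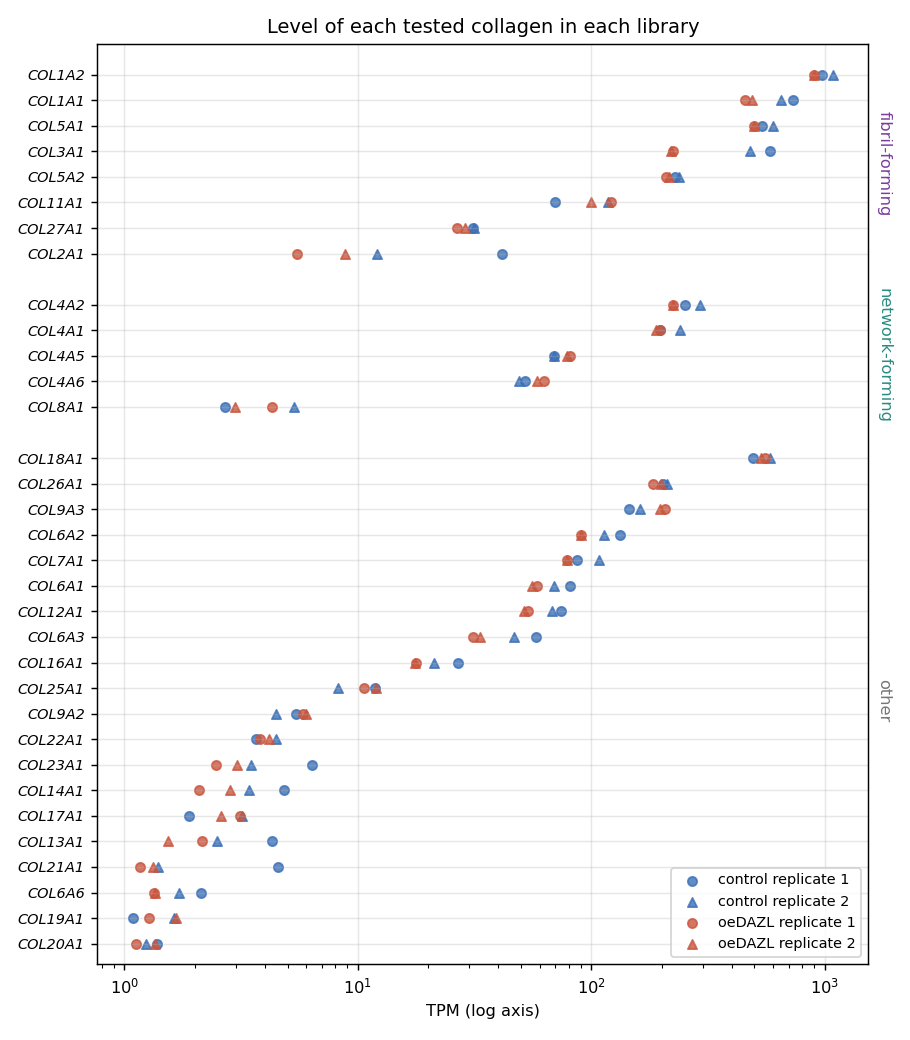
Level in TPM (log axis) of the 33 tested collagens in the 4 libraries, ordered by class and mean level. Points are single libraries. COL3A1 lies at 583 and 479 TPM in the controls and at 224 and 220.4 TPM in oeDAZL, and control replicate 1 stands apart from the other 3 libraries for COL2A1 (41.5 TPM), COL21A1 (4.55 TPM) and COL11A1 (69.9 TPM).

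COL3A1, the only chain of type III collagen, fell in oeDAZL cells by more than any other abundant collagen, and no collagen rose by 2-fold. Most other collagens above 50 TPM were slightly lower, whereas the type IV chains COL4A5 and COL4A6 and the type IX chain COL9A3 were slightly higher. A gene was called if it differed at least 2-fold with an unadjusted P of at most 0.05 in limma, fitted on log2(TPM + 1) over all 16687 tested genes. By this rule 2 of the 33 collagens were lower, COL2A1 and COL3A1, where 0.563% of all tested genes were, and 0 collagens were higher, where 0.126% were. At an unadjusted P of at most 0.05 without a fold threshold, 14 of the 33 collagens were lower, where 15.2% of all tested genes were, and 3 were higher, where 5.02% were. These counts depended on the scaling: they were 8 lower and 3 higher after median-of-ratios scaling, and 6 lower and 4 higher after correcting each library for GC content and length. The 15.2% and 5.02% belong to the fit without these steps, and the shares of all tested genes after them were not computed. With the Benjamini-Hochberg adjustment over all tested genes, COL3A1 alone of the collagens had a limma adjusted p under 0.05, where 0.0599% of all tested genes had one. In bulk RNA, fewer cells that make a collagen and less of its RNA per cell cannot be told apart.

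The median log2 fold change (oeDAZL minus control) was -0.19 over the 33 collagens and -0.08 over all tested genes, of which 65.3% were lower. Both oeDAZL libraries lay below both controls for 20 collagens, where 38.4% of all tested genes did so, and above both controls for 4, where 16.0% did so. The groups overlapped for the other 9. Among genes with a mean of at least 50 TPM, 10 of 17 collagens were lower at an unadjusted P of at most 0.05, where 15.7% of all such genes were, and 3 were higher, where 11.0% were. Leaving out control replicate 1, which stood apart for several collagens, gave a median of -0.25 over the collagens and -0.06 over all tested genes. Without control replicate 2 these medians were -0.11 and -0.10. They were -0.19 and -0.07 without oeDAZL replicate 1, and -0.19 and -0.08 without oeDAZL replicate 2.

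**Figure D2:**
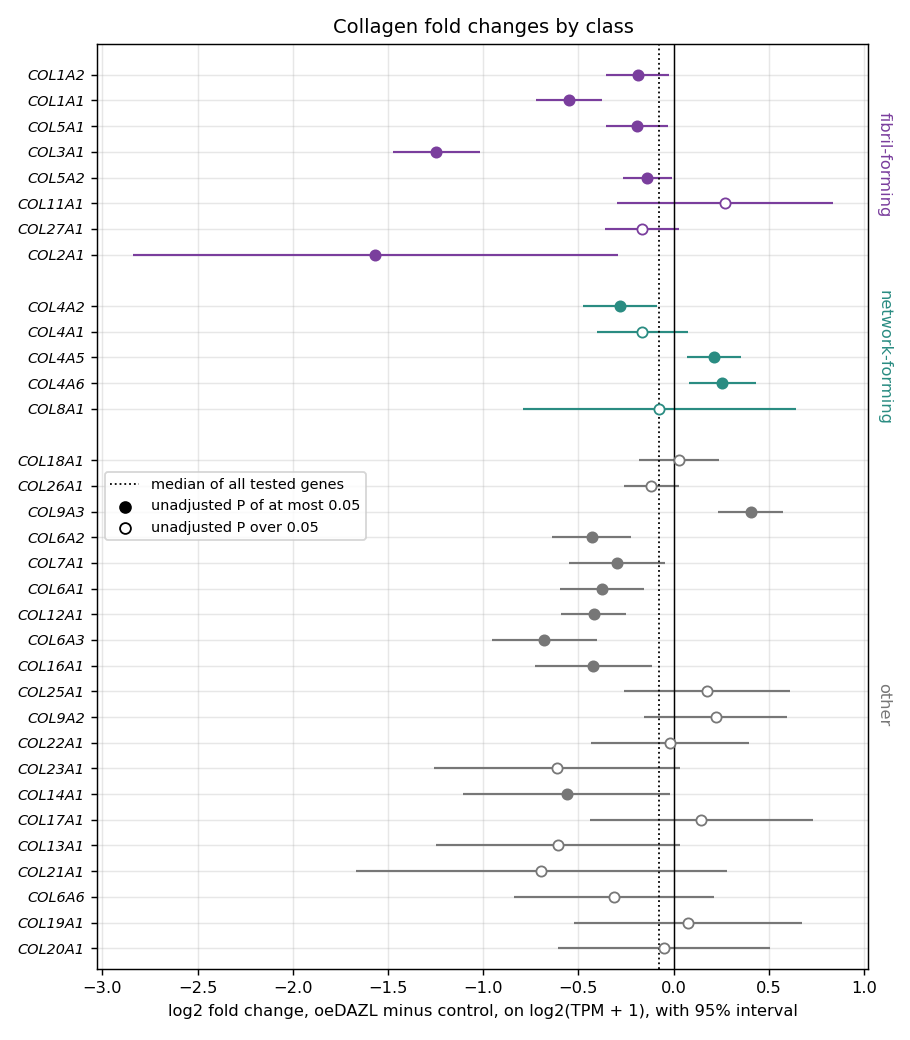
Log2 fold change on the log2(TPM + 1) scale, oeDAZL minus control, of the 33 tested collagens, with the 95% interval from limma. Filled points have an unadjusted P of at most 0.05, and the dotted line is the median of all tested genes (-0.08). Of the fibril-forming collagens, COL11A1 alone lies to the right of 0, and of the network-forming collagens COL4A5 and COL4A6 do.

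The fibril-forming class comprised 11 genes, of which 8 were tested. COL3A1 (ENSG00000168542, chr2:188974373-189012746, plus strand, 51 exons) encodes the chain of type III collagen, the fibrillar collagen of pliable tissues such as vessel walls and skin. It was at 583 and 479 TPM in the controls and at 224 and 220.4 TPM in oeDAZL. Both oeDAZL libraries lay far below both controls and differed from each other by less than the controls did. The mean was 531 ± 73.6 TPM in the controls and 222 ± 2.50 TPM in oeDAZL (SD, n = 2), so that oeDAZL held 41.8% of the control level. The log2 fold change was -1.25 (SE 0.09), with a limma adjusted p of 0.0344. Without any 1 library it stayed between -1.39 and -1.10. The adjusted p was 0.0609 after median-of-ratios scaling, 0.0644 when libraries were quantile-normalized, 0.0639 after correcting for GC content and length, 0.222 without the variance trend and 0.322 without the filter on TPM, so its place under 0.05 depends on these choices, while the 2-fold call was made in all 14 alternatives.

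Type I collagen, the most abundant collagen of bone, tendon and skin, is built of 2 chains encoded by COL1A1 and 1 chain encoded by COL1A2. COL1A1 was at 729 and 651 TPM in the controls and at 455 and 486 TPM in oeDAZL. The groups did not overlap, and the log2 fold change was -0.55 (SE 0.07), with a limma adjusted p of 0.0885. COL1A2 was at 972 and 1090 TPM in the controls and at 902 and 903 TPM in oeDAZL, which is a log2 fold change of -0.19 (SE 0.07), with an adjusted p of 0.204. The COL1A1 to COL1A2 ratio of TPM was 0.750 and 0.597 in the controls and 0.505 and 0.538 in oeDAZL. The oeDAZL ratios lay below both controls, and the controls differed from each other by more than control replicate 2 did from oeDAZL.

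COL2A1 encodes the chain of type II collagen, the fibrillar collagen of cartilage and notochord. It was at 41.5 and 12.0 TPM in the controls and at 5.46 and 8.77 TPM in oeDAZL. Both oeDAZL libraries lay below both controls, but control replicate 1 was far above control replicate 2. The log2 fold change was -1.57 (SE 0.52), with an unadjusted P of 0.0235 and a limma adjusted p of 0.189. Without control replicate 1 it was -0.72, which is under 2-fold, and without oeDAZL replicate 1 it was -1.27 with an unadjusted P of 0.057. Without control replicate 2 it was -2.42. The call was also lost without the filter on TPM and without the variance trend. Other genes that were highest in control replicate 1 were AFP, an endoderm marker, at 36.3 TPM against 13.1, 8.91 and 11.6 TPM, and PAX6, a neural marker, at 3.83 TPM against 1.14, 0.0967 and 0.558 TPM. Their part in the COL2A1 result was not tested.

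Type V and type XI collagens are the minor fibrillar collagens on which type I and type II fibrils are nucleated. COL5A1 was at 539 and 603 TPM in the controls and at 500.1 and 498 TPM in oeDAZL, and COL5A2 was at 228 and 239 TPM against 209 and 215 TPM. Both were lower without overlap, by small amounts: the log2 fold change was -0.19 (SE 0.07) for COL5A1 and -0.14 (SE 0.05) for COL5A2, and neither passed the adjustment. With median-of-ratios scaling they were -0.11 and -0.05, past no threshold, and after correcting for GC content and length -0.01 and -0.04. The COL5A1 to COL5A2 ratio, 2.36 and 2.53 in the controls and 2.39 and 2.32 in oeDAZL, overlapped between the groups. COL27A1, a fibrillar collagen of cartilage, was at 31.1 and 31.4 TPM in the controls and at 26.6 and 28.8 TPM in oeDAZL, with a log2 fold change of -0.17 (SE 0.08) and an unadjusted P of 0.0797. COL11A1 was the exception in direction, at 69.9 and 118 TPM in the controls and at 121 and 99.6 TPM in oeDAZL. The groups overlapped, and its log2 fold change of 0.27 (SE 0.23) was -0.10 without control replicate 1.

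COL3A1 and COL5A2 lie next to each other on chromosome 2, on opposite strands with their 3′ ends facing, 19151 bases apart. The COL3A1 to COL5A2 ratio was 2.56 and 2.01 in the controls and 1.07 and 1.03 in oeDAZL. The oeDAZL ratios lay below both controls, and in oeDAZL COL3A1 was at 41.8% and COL5A2 at 90.9% of its control mean. The COL3A1 to COL1A1 ratio was 0.800 and 0.735 in the controls and 0.492 and 0.454 in oeDAZL, again without overlap.

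**Figure D3:**
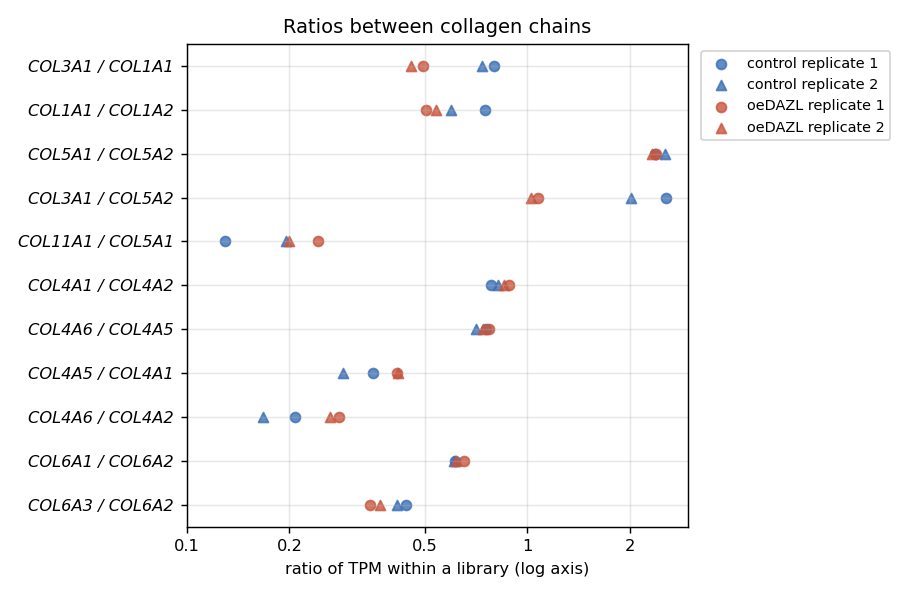
Ratio of TPM between pairs of collagen chains in each library (log axis). Points are single libraries. The ratios of COL3A1 to COL1A1 and to COL5A2 are lower in both oeDAZL libraries than in both controls, the ratios of COL4A5 to COL4A1 and of COL4A6 to COL4A2 are higher, and the ratios of COL5A1 to COL5A2 and of COL4A6 to COL4A5 overlap.

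The network-forming class comprised 9 genes, of which 5 were tested. Type IV chains are encoded by 3 pairs of genes, and the genes of a pair lie head to head with starts 1345 bases apart for COL4A1 and COL4A2, 171 for COL4A3 and COL4A4 and 341 for COL4A5 and COL4A6. COL4A1 and COL4A2 make the type IV molecule found in nearly all basement membranes. COL4A1 was at 196 and 240.4 TPM in the controls and at 197 and 190.1 TPM in oeDAZL, with overlapping groups and a log2 fold change of -0.16 (SE 0.10). COL4A2 was at 251 and 293 TPM in the controls and at 223 TPM in both oeDAZL libraries, with a log2 fold change of -0.28 (SE 0.08), an unadjusted P of 0.0120 and a limma adjusted p of 0.155. Both values were nearer 0 after correcting for GC content and length, where COL4A2 was at -0.10.

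COL4A5 and COL4A6, the pair on chromosome X whose products take part in basement membranes of kidney and smooth muscle, were both higher. COL4A5 was at 69.1 TPM in both controls and at 81.3 and 79.0 TPM in oeDAZL, and COL4A6 was at 52.1 and 48.9 TPM against 62.5 and 58.5 TPM. Neither gene had overlapping groups. The log2 fold change was 0.21 (SE 0.06) for COL4A5, with a limma adjusted p of 0.150, and 0.26 (SE 0.07) for COL4A6, with a limma adjusted p of 0.152. The COL4A6 to COL4A5 ratio was 0.755 and 0.707 in the controls and 0.769 and 0.741 in oeDAZL, with overlap. The COL4A5 to COL4A1 ratio was 0.352 and 0.288 in the controls and 0.413 and 0.416 in oeDAZL, without overlap, and the COL4A6 to COL4A2 ratio was 0.208 and 0.167 against 0.280 and 0.262. The COL4A1 and COL4A2 values were negative and the COL4A5 and COL4A6 values positive, and the difference between the pairs was given by these ratios only and was not tested. COL4A3 and COL4A4, the pair of the glomerular membrane, were between 0.130 and 0.745 TPM and were not tested. COL8A1, a short-chain network collagen, was at 2.69 and 5.32 TPM in the controls and at 4.27 and 2.99 TPM in oeDAZL, where the groups overlapped.

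Summed over their genes, the fibril-forming collagens were at 3195 and 3224 TPM in the controls and at 2444 and 2461 TPM in oeDAZL. COL3A1 made up part of this gap, since without it the sums were 2612 and 2745 TPM against 2220.2 and 2241 TPM, which still did not overlap. The network-forming collagens summed to 573 and 659 TPM in the controls and to 569 and 555 TPM in oeDAZL, where control replicate 1 was close to oeDAZL. The other collagens summed to 1350 and 1419 TPM against 1316 and 1299 TPM. As a share of all collagen TPM, the fibril-forming class was 62.4% and 60.8% in the controls and 56.5% and 57.0% in oeDAZL, the network-forming class 11.2% and 12.4% against 13.2% and 12.9%, and the other collagens 26.4% and 26.8% against 30.4% and 30.1%. None of these shares overlapped between the groups. They are parts of the same total, so a lower share of the fibril-forming class raises the others, whose sums were not higher in oeDAZL. An exact permutation test of 2 against 2 libraries cannot give a two-sided p under 0.333, so no test of these shares was made.

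**Figure D4:**
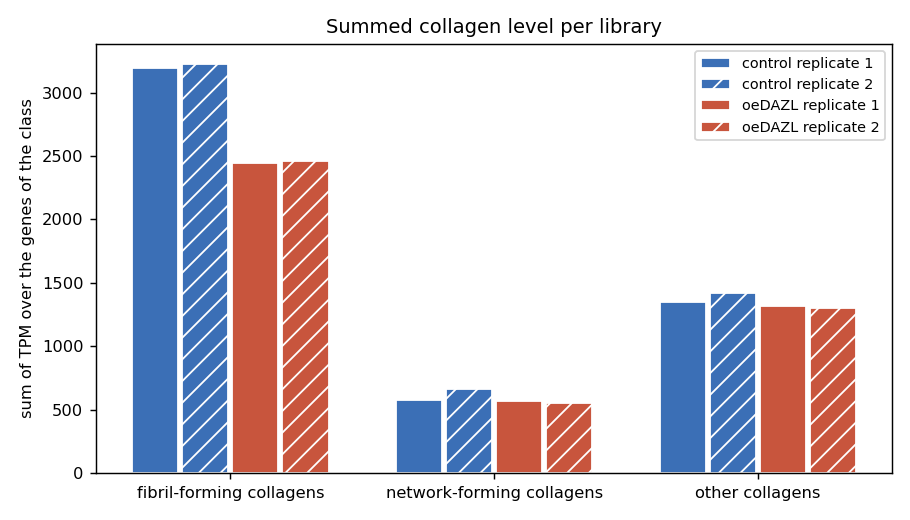
Sum of TPM over the genes of each collagen class in each library, with bars from 0. The fibril-forming bars are at 3195 and 3224 TPM in the controls and at 2444 and 2461 TPM in oeDAZL, a wider gap than in the other classes.

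By class, 6 of the 8 tested fibril-forming collagens were lower at an unadjusted P of at most 0.05 and 0 were higher, 1 of the 5 network-forming collagens was lower and 2 were higher, and 7 of the 20 other collagens were lower and 1 was higher, where 15.2% of all tested genes were lower and 5.02% higher. The median log2 fold change was -0.19 for the fibril-forming, -0.08 for the network-forming and -0.30 for the other collagens, where it was -0.08 over all tested genes. These medians are a description. That of the fibril-forming class was -0.11 after median-of-ratios scaling and -0.0542 after correcting for GC content and length. The median of the network-forming class rests on 5 genes and was 0.21 without control replicate 2, 0.13 without oeDAZL replicate 2 and -0.31 without control replicate 1.

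Among the other 24 collagens, 20 were tested, and the chains of type VI collagen were lower together. Type VI forms beaded microfilaments between cells and fibrils, and its usual molecule holds 1 chain each of COL6A1, COL6A2 and COL6A3. COL6A1 was at 81.1 and 68.9 TPM in the controls and at 58.8 and 55.9 TPM in oeDAZL. COL6A2 was at 132 and 113 TPM against 90.1 and 90.6 TPM, and COL6A3 was at 58.2 and 46.9 TPM against 31.1 and 33.4 TPM. All 3 chains had lower values in both oeDAZL libraries than in either control, with log2 fold changes of -0.38 (SE 0.09), -0.43 (SE 0.08) and -0.68 (SE 0.11) and limma adjusted p of 0.120, 0.0962 and 0.0896. The COL6A3 to COL6A2 ratio was 0.440 and 0.415 in the controls and 0.345 and 0.369 in oeDAZL, and the COL6A1 to COL6A2 ratio was 0.613 and 0.610 against 0.652 and 0.617. COL6A6 was at 2.13 and 1.71 TPM against 1.34 and 1.35 TPM, with a log2 fold change of -0.31 (SE 0.22).

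The fibril-associated collagens with interrupted helices coat fibrils and differed among themselves. COL12A1, which binds type I fibrils, was at 73.8 and 67.7 TPM in the controls and at 53.5 and 51.7 TPM in oeDAZL, with a log2 fold change of -0.42 (SE 0.07) and a limma adjusted p of 0.0896. COL16A1 was at 27.0 and 21.2 TPM against 17.7 and 17.5 TPM, with a log2 fold change of -0.42 (SE 0.13), and COL14A1 was at 4.84 and 3.40 TPM against 2.08 and 2.84 TPM, with a log2 fold change of -0.56 (SE 0.22). All 3 were lower without overlap. COL9A3, a chain of type IX collagen of cartilage, was the collagen with the largest positive value, at 145 and 161 TPM in the controls and at 208 and 198 TPM in oeDAZL. Its log2 fold change was 0.41 (SE 0.07), with a limma adjusted p of 0.0896. The partner chain COL9A2 was at 5.44 and 4.46 TPM in the controls and at 5.82 and 6.0 TPM in oeDAZL, with a log2 fold change of 0.22 (SE 0.15), and COL9A1 was at 2.26 and 0.847 TPM against 0.364 and 0.481 TPM, just under the filter. COL9A3 was thus between 26.6 and 36.2 times as abundant as COL9A2 in each library, although the chains join in 1 molecule.

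SOX9, a transcription factor that activates COL2A1 in cartilage, was at 24.9 and 30.4 TPM in the controls and at 47.4 and 43.8 TPM in oeDAZL, with a log2 fold change of 0.71 (SE 0.11) and a limma adjusted p of 0.0896. Its direction was that of COL9A3 and opposite to that of COL2A1. Of 5 markers of cartilage and notochord, 4 were tested. NOG was also higher at an unadjusted P of at most 0.05 and TBXT was lower, where 5.02% and 15.2% of all tested genes were. The summed level of the 5 was 109 and 130 TPM in the controls and 160 and 146 TPM in oeDAZL. This sum is mostly SOX9 and NOG, and NOG was at 78.2 and 94.8 TPM against 108 and 98.9 TPM. ACAN was at 3.34 and 3.11 TPM against 3.33 and 2.70 TPM, with overlapping groups. MATN1 was at most 0.273 TPM, and its groups overlapped too. Whether cartilage or notochord cells were present, and any part of theirs in the collagen values, was not tested.

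COL7A1, whose product forms the anchoring fibrils below epithelia, was at 86.9 and 108 TPM in the controls and at 78.8 and 78.4 TPM in oeDAZL, with a log2 fold change of -0.30 (SE 0.10) and an adjusted p of 0.20 in limma. COL18A1, the precursor of endostatin in basement membranes, was at 491 and 583 TPM in the controls and at 557 and 536 TPM in oeDAZL. Its groups overlapped, and the 95% interval of its log2 fold change ran from -0.18 to 0.24. COL26A1 was at 204 and 211 TPM against 185 and 198 TPM, with a log2 fold change of -0.12 (SE 0.06). The transmembrane collagens COL13A1, COL17A1, COL23A1 and COL25A1 were between 1.54 and 12.0 TPM in all libraries, and 0 of the 4 passed an unadjusted P of 0.05. COL13A1 was at 4.28 and 2.50 TPM against 2.14 and 1.54 TPM, and COL23A1 at 6.34 and 3.48 TPM against 2.47 and 3.05 TPM, with log2 fold changes of -0.61 and -0.61. For both, control replicate 1 was the highest library by a wide margin.

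Control replicate 1 also decided the value of COL21A1, which was at 4.55 TPM there and at 1.39 TPM in control replicate 2, against 1.17 and 1.33 TPM in oeDAZL. The log2 fold change was -0.70 (SE 0.40), with an unadjusted P of 0.132. Of the 33 tested collagens, 8 differed by more than 1.5-fold between the controls and 1 did between the oeDAZL libraries. The share of all tested genes that did so was not computed, so whether collagens varied more than other genes is not known. Among the 22 with a mean of at least 10 TPM, COL2A1 and COL11A1 did so between the controls. COL17A1, COL19A1, COL20A1, COL22A1 and COL25A1 were between 1.08 and 12.0 TPM with overlapping groups.

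The 11 collagens under the filter were between 0 and 2.26 TPM in every library. Both oeDAZL libraries lay below both controls for 6 of them, above for 1, and the groups overlapped for 4. The share over all genes under the filter was not computed, so these counts have no background to be read against. The members next to the filter were COL15A1 and COL9A1, with means of 0.887 and 0.989 TPM, just below it, and COL20A1 and COL19A1, with means of 1.27 and 1.41 TPM, just above it.

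Procollagen chains are hydroxylated, glycosylated and folded in the endoplasmic reticulum before export, and 16 of 19 genes on the list for this had negative log2 fold changes, where 65.3% of all tested genes had. All 19 were tested, and 6 were lower and 2 higher at an unadjusted P of at most 0.05, where 15.2% and 5.02% of all tested genes were. Over this list and the 4 that follow, the number of genes lower at that threshold was 24, and it was 11 after median-of-ratios scaling and 11 after correcting for GC content and length. Shares of all tested genes were not computed for the rescaled and corrected fits. In the first list 0 passed the 2-fold call, and the median log2 fold change was -0.14. SERPINH1, the collagen chaperone HSP47, was at 476 and 534 TPM in the controls and at 429 and 455 TPM in oeDAZL, with a log2 fold change of -0.19. P4HB, a subunit of prolyl 4-hydroxylase, had the highest mean level of the list and a log2 fold change of -0.04 (SE 0.05). The prolyl 3-hydroxylase family genes P3H1, P3H3 and P3H4 were lower, with log2 fold changes of -0.23, -0.44 and -0.29, as were the peptidyl-prolyl isomerase FKBP10 (-0.28) and the lysyl hydroxylase PLOD1 (-0.21). PLOD2, the lysyl hydroxylase of the collagen telopeptides, went the other way, from 102 and 119 TPM to 150.2 and 148 TPM, with a log2 fold change of 0.43 (SE 0.08). P4HA1, the catalytic subunit of prolyl 4-hydroxylase, was higher too, with a log2 fold change of 0.22.

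After export, propeptides are cut off and fibrils are cross-linked. Of 17 genes on this list, 13 were tested, of which 6 were lower and 0 higher at an unadjusted P of at most 0.05, where 15.2% and 5.02% of all tested genes were, and the median log2 fold change was -0.17. BMP1, the C-propeptidase, was at 46.4 and 48.6 TPM in the controls and at 38.4 and 35.6 TPM in oeDAZL, and its enhancer PCOLCE was at 114 and 93.8 TPM against 68.5 and 78.7 TPM. The log2 fold changes were -0.35 for BMP1, -0.49 for PCOLCE and -0.50 for ADAMTS2, the N-propeptidase. The lysyl oxidase family members LOXL1, LOXL2 and LOXL3 were at -0.37, -0.19 and -0.60, and SEC23A, of the coat that exports procollagen, was at 0.13 (SE 0.06). LOX itself had a log2 fold change of 0.11 (SE 0.17) with overlapping groups.

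Of the collagen receptors, 10 were listed and 6 tested, of which 1 was lower and 2 were higher at an unadjusted P of at most 0.05, where 15.2% and 5.02% of all tested genes were, so the share that was lower was near the background, and the median log2 fold change was -0.15. ITGB1, the shared beta chain of the collagen-binding integrins, was at 543 and 659 TPM in the controls and at 829 and 788 TPM in oeDAZL, with a log2 fold change of 0.43 (SE 0.10) and a limma adjusted p of 0.110. ITGA2, the alpha chain of a collagen-binding integrin, was also higher, with a log2 fold change of 0.23. DDR2, a receptor tyrosine kinase for fibrillar collagen, was lower, at 3.52 and 3.29 TPM against 2.40 and 1.91 TPM, with a log2 fold change of -0.49, and DDR1 had a log2 fold change of -0.27 (SE 0.12). Of 11 collagen-degrading enzymes and inhibitors, 8 were tested, of which 1 was lower and 2 were higher, against the same 15.2% and 5.02%, and the median log2 fold change was 0.00. MMP9, a gelatinase, was higher, with a log2 fold change of 0.51, and so was the inhibitor TIMP2 (0.30), while MMP2 was lower (-0.19), and MMP14, which cleaves fibrillar collagen at the cell surface, had a log2 fold change of -0.03. TIMP3, an inhibitor bound to the matrix, had a log2 fold change of 0.43 (SE 0.21) with overlapping groups. Of the fibrillar collagenases, MMP8 and MMP13 were listed at 0 in every library. MMP1 was at 2.77 and 2.82 TPM in the controls and at 3.35 and 2.37 TPM in oeDAZL, with a log2 fold change of 0.01 and overlapping groups.

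Of 18 matrix partners of collagen, 10 were lower and 1 higher at an unadjusted P of at most 0.05, where 15.2% and 5.02% of all tested genes were, and the median log2 fold change was -0.19. NID2, a basement membrane protein that binds type IV collagen, was at 74.7 and 69.5 TPM in the controls and at 40.1 and 41.8 TPM in oeDAZL, with a log2 fold change of -0.80 (SE 0.07) and a limma adjusted p of 0.0431, which was 0.112 with the replicate block and between 0.00295 and 0.322 over the alternatives. DCN and LUM, small leucine-rich proteoglycans that coat collagen fibrils, were also lower. DCN was at 10.1 and 6.45 TPM against 3.05 and 3.54 TPM, with a log2 fold change of -1.08 that passed the 2-fold call but was -0.80 without control replicate 1. LUM was at 335 and 260 TPM against 174 and 186 TPM, with a log2 fold change of -0.71. HSPG2, the basement membrane proteoglycan perlecan, was at -0.57. The other members that were lower were NID1 (-0.38), FBN1 (-0.30), TGFBI (-0.24), FBLN1 (-0.20), SPARC (-0.18) and LAMB1 (-0.16). FN1, fibronectin, was the most abundant of the list and had a log2 fold change of 0.07 (SE 0.08) with overlapping groups. LAMA1, a laminin chain, was the member that was higher, with a log2 fold change of 0.19.

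**Figure D5:**
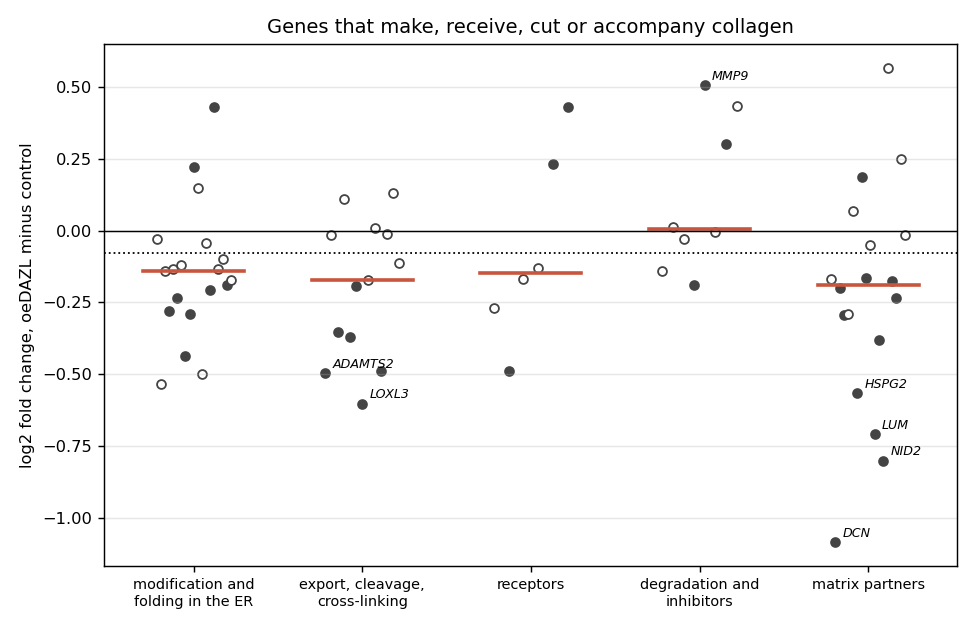
Log2 fold change, oeDAZL minus control, of the tested genes of 5 lists: enzymes and chaperones of the endoplasmic reticulum, export and cross-linking, receptors, degradation, and matrix partners. Filled points have an unadjusted P of at most 0.05, red bars are list medians and the dotted line is the median of all tested genes (-0.08). DCN (-1.08) and NID2 (-0.80) are the lowest points, and MMP9 (0.51) is the highest of the filled ones.

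Markers of the cell types that usually make collagen did not share 1 direction. Of all tested genes, 15.2% were lower and 5.02% higher at an unadjusted P of at most 0.05. Both oeDAZL libraries lay below both controls for 38.4% of them and above both for 16.0%. Of 8 mesenchyme markers, PDGFRB was lower (log2 fold change -0.25) and TWIST2 and SNAI2 were higher (0.65 and 0.37) at an unadjusted P of at most 0.05, and the summed level of the 8 was 1371 and 1653 TPM in the controls and 1735 and 1665 TPM in oeDAZL. This sum is mostly VIM, at 1188 and 1460 TPM against 1539 and 1469 TPM. PDGFRA, PDGFRB and THY1 were lower in both oeDAZL libraries than in both controls, and TWIST2, SNAI2 and VIM were higher in both. The 5 smooth muscle and pericyte markers summed to 1356 and 1762 TPM against 1514 and 1450 TPM, although ACTA2, smooth muscle actin, was at 308 and 343 TPM in the controls and at 210.3 and 221 TPM in oeDAZL (log2 fold change -0.59). Of 5 endothelial markers, PECAM1 was listed at 0 in all libraries, and KDR was lower (-0.55). CDH5 and TEK had log2 fold changes of 0.04 and 0.08 with overlapping groups, and VWF, at most 0.751 TPM, overlapped too. The 5 epithelial markers summed to 16597 and 17333 TPM in the controls and to 18816 and 18671 TPM in oeDAZL. These sums are mostly the keratins KRT8, KRT18 and KRT19, and CDH1 had the opposite direction, at 588 and 529 TPM against 483 and 500.1 TPM (log2 fold change -0.18, unadjusted P 0.0311). The 6 endoderm markers summed to 268 and 160 TPM against 163 and 204 TPM, and the 4 neural markers to 437 and 577 TPM against 689 and 635 TPM. The neural sums are NES and TUBB3, whereas PAX6 (log2 fold change -1.30, unadjusted P 0.0233) and SOX1, which was at most 0.304 TPM, were lower in both oeDAZL libraries than in both controls. The 8 germ cell markers summed to 70.6 and 62.8 TPM against 57.7 and 63.3 TPM, and these sums are mostly TFAP2C. All 6 tested germ cell markers had negative log2 fold changes, where 65.3% of all tested genes had. Of the 6, 0 passed an unadjusted P of 0.05. NANOS3, PRDM1 and KIT, 3 of the 6, were lower in both oeDAZL libraries than in both controls, where 38.4% of all tested genes were. The 5 pluripotency markers summed to 540.5 and 486 TPM against 483 and 466 TPM. The pluripotency sums are mostly LIN28A, whereas POU5F1 was at 13.6 and 10.6 TPM in the controls and at 22.4 and 20.4 TPM in oeDAZL (log2 fold change 0.79, unadjusted P 0.00107), and NANOG, at most 0.813 TPM, was higher in both oeDAZL libraries than in both controls. The part of the makeup of the cultures in the collagen values was not tested.

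Since the study concerns DAZL and the processing of precursor miRNAs, the 3′UTRs of the collagens were searched for 8mer sites, the complement of miRNA positions 2 to 8 followed by A. The mature sequences, from RefSeq (GRCh38.p14), are shown for the let-7 family, which the study examined, and for miR-29, a family long known to have sites in collagen genes. Capitals mark the seed, positions 2 to 8.
hsa-let-7a-5p: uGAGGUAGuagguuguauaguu
hsa-miR-29a-3p: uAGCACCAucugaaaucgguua
The let-7 site, CTACCTCA, was found in 4 of the 44 collagens (9.1%) and in 3.7% of 19228 genes with a 3′UTR. The miR-29 site, TGGTGCTA, was found in 20 of the 44 collagens (45.5%) and in 3.2% of all those genes. The site of miR-199a-3p was found in 3 collagens (6.8%, against 2.4% of all those genes) and that of miR-125b-5p in 1 (2.3% against 5.2%). That of miR-22-3p was found in 1 (2.3% against 2.0%) and that of miR-21-5p in 0 (against 2.4%). The 4 collagens with a let-7 site are shown with the site in capitals within 30 bases of the transcript strand, because they include COL3A1. The sites lie in the 3′UTR at chr7:94430771-94430778 (COL1A2, plus strand), chr2:189012182-189012189 (COL3A1, plus strand), chrX:108156728-108156735 (COL4A6, minus strand) and chr2:189033012-189033019 (COL5A2, minus strand) of hg38.
COL1A2: aaaggtttaaaCTACCTCAaaacactttcc
COL3A1: ccctattttaaCTACCTCAactggtcagaa
COL4A6: actattcatggCTACCTCAgaaagatttga
COL5A2: cttagcatgagCTACCTCAtctctagaagc
Genes with the same site had different values: the log2 fold change was -1.25 for COL3A1, -0.19 for COL1A2, -0.14 for COL5A2 and 0.26 for COL4A6. The median over the 4 was -0.16, and it was -0.19 over the 29 tested collagens without the site. Over all tested genes with a 3′UTR the medians were -0.08 with and -0.07 without a let-7 site. For miR-29 the median was -0.19 over the 17 tested collagens with a site and -0.22 over the 16 without. For miR-199a-3p it was 0.07 over the 3 tested collagens with a site, of which 2 were higher, and -0.19 over the 30 without. COL3A1 holds 2 miR-29 sites, as does COL5A1, whose value was -0.19. A match of 8 letters is a description and does not show binding, and the miRNA libraries of the series were not analysed here.

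Collagen transcripts are long and rich in G and C. The median length of the canonical transcript was 6394 bases for the tested collagens and 2775 bases for all tested genes, and the median GC content was 58.8% and 48.6%. When each library was corrected for GC content and length, a choice made after seeing the data, 6 collagens were lower and 4 higher at an unadjusted P of at most 0.05, against 14 and 3 without the correction, and the median over the collagens was -0.04, where that of all tested genes was 0.00. COL3A1 was at -1.13 and COL1A1 at -0.37 in that fit. With median-of-ratios scaling, 8 were lower and 3 higher, and the median over the collagens was -0.11, where that of all tested genes was -0.00. Shares of all tested genes were not computed for these fits, so their counts have no background to be read against. COL1A1, COL3A1, COL6A2, COL6A3, COL9A3 and COL12A1 kept their direction and an unadjusted P of at most 0.05 in every alternative that was run, and the other 11 of the 17 lost it in at least 1.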

How the data were processed

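RNA sequencing libraries of 2 control and 2 oeDAZL samples were used. The authors deposited TPM per gene, 1 column per library. According to the methods they trimmed reads with TrimGalore, mapped them to hg38 with HISAT2 2.1.0, kept unique reads and quantified them with StringTie 2.1.4. The annotation release is not given in the sources used here. TPM keeps no read depth, so depth is unknown and precision rests on the spread between 2 libraries per group. Of 65003 entries, 45 chromosome Y copies and 18 repeats of an identifier were left out.

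Values were transformed to log2(TPM + 1), which understates changes of low genes. In all, 16687 genes reached a mean of 1 TPM and entered a limma fit (version 3.58.1, R 4.3.3, eBayes with trend, no covariates), and p was adjusted by Benjamini-Hochberg over all of them. Called genes differed at least 2-fold with an unadjusted P of at most 0.05. These are the thresholds of the study, which applied them in DESeq2 and not in limma on TPM, so its calls and those here need not match. The fit was also run on simulated data, with the same noise for every gene and larger changes than most seen here, so that run does not bear on the calls reported. The members and lists were chosen with earlier results of these data known. All collagens could be named, and of each list the members with an unadjusted P of at most 0.05 and the most abundant were named first. For genes listed under several identifiers, the most abundant was used. Positions, coding sequences and 3′UTRs are those of canonical transcripts of GENCODE 44 on the same build. The miRNA libraries were not used here.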

Additional observations from a re-analysis of the deposited data

How the results depend on the processing

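TPM holds no depth, each group has 2 libraries, and control replicate 1 stood apart for several collagens, so small differences are uncertain. Shares over all tested genes are given for the first fit only. Counts from the alternative fits below therefore have no background to be read against. Of the 2 called collagens, 1 remained called without the filter on TPM, without the variance trend, and with a 2-fold change and an adjusted p under 0.05. Leaving out 1 library, where the library left alone in its group is assumed to vary like the other group, gave between 1 and 3 called collagens. The collagens with an adjusted p under 0.05 numbered 1 in limma, 0 without the filter, 0 with median-of-ratios scaling, 0 after quantile normalization, 0 without the trend and 0 after correcting for GC content and length, and between 1 and 9 with 1 library left out. The count at an unadjusted P of at most 0.05, 14 lower and 3 higher, was 8 lower with median-of-ratios scaling, 9 without the trend and 6 after correcting for GC content and length, and between 8 and 15 lower and 1 and 5 higher with 1 library left out. Over the 5 lists, 24 genes were lower and 7 higher at that threshold. This was 11 lower with median-of-ratios scaling and 11 after correcting for GC content and length, and between 11 (without oeDAZL replicate 1) and 23 lower and between 4 (without either oeDAZL replicate) and 11 higher (without control replicate 2) with 1 library left out.

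The median log2 fold change over the collagens was -0.11 after median-of-ratios scaling, -0.037 after correcting for GC content and length, and between -0.25 and -0.11 with 1 library left out. For the fibril-forming collagens it was -0.11 and -0.0542 in those fits, and between -0.27 and -0.14 with 1 library left out. For the network-forming collagens it was between -0.31 and 0.21 with 1 library left out. For the other collagens it was -0.24 after median-of-ratios scaling, -0.20 after quantile normalization and -0.14 after correcting for GC content and length, and between -0.31 and -0.18 with 1 library left out. Signs near 0 turned for single genes. After quantile normalization COL20A1 was at 0.12, COL22A1 at 0.15 and COL8A1 at 0.084, and COL22A1 was at 0.049 after median-of-ratios scaling. After correcting for GC content and length, COL20A1 was at 0.14, COL22A1 at 0.14, COL26A1 at 0.057, COL27A1 at 0.021 and COL8A1 at 0.00639. With 1 library left out, the lowest and highest values were -0.10 and 0.65 for COL11A1, -0.12 and 0.41 for COL17A1, -0.092 and 0.15 for COL18A1, -0.093 and 0.24 for COL19A1, -0.13 and 0.028 for COL20A1, -0.14 and 0.10 for COL22A1, -0.063 and 0.42 for COL25A1 and -0.46 and 0.31 for COL8A1. The cause of these moves was not tested.

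Control and oeDAZL libraries share replicate numbers, but no label says that a number marks a shared culture, and libraries of the same number did not deviate together (correlation -0.10 over 16687 genes). With the replicate block, 2 collagens were called and 1 had an adjusted p under 0.05, while 13 were lower and 3 higher at an unadjusted P of at most 0.05. With the numbers crossed, chosen after seeing the data, 2 were called and 9 had an adjusted p under 0.05.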
